A study of Mus musculus with 2 samples.

Results

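CD8 T cells without PD-1 transcripts were described in the CD45+ cells, the leukocytes, of mouse intrahepatic cholangiocarcinoma (iCCA), which arises from bile duct epithelium within the liver. The cells were chosen by their UMIs, the counts of single captured RNA molecules. A barcode, the tag shared by the RNA of 1 cell, needed 500 UMIs and 200 genes or more, and a mitochondrial share below 20%. It also needed at least 1 UMI of Cd8a or Cd8b1, the chains of the CD8 coreceptor, and at least 1 UMI of Cd3d, Cd3e, Cd3g or Trac, which encode parts of the T cell receptor complex. It was to hold no UMI of Cd4 and none of Pdcd1, the gene of the inhibitory receptor PD-1, and at most 1 UMI over Csf1r, C1qa, Csf3r and Cd79a, genes of macrophages, neutrophils and B cells. The rule found 189 of 21211 kept barcodes, 70 in the MOCK library and 119 in the NAV library. A further 180 barcodes, 55 MOCK and 125 NAV, met the same rule with at least 1 Pdcd1 UMI and are called CD8 T cells with PD-1 transcripts.

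Tumours arose in C57BL/6 mice after hydrodynamic injection, a rapid injection that carries plasmids into hepatocytes, of transposon vectors for Myr-AKT and YAPS127A, which are activated forms of AKT and YAP. Both groups carried these vectors. From day 7, the NAV mice received NAV2729, a compound that blocks ARF GTPase activation, at 30 mg/kg every other day for 7 days, and the MOCK mice a mock treatment. The labels give no age, and the model starts from injected liver cells of otherwise normal mice. Each group was 1 pooled BD Rhapsody library, of 6 tumours by the design text or of 3 paired tumours by the protocol. A single library stood for each group, so no test could be made. Every interval given is a 95% interval of counting error only, which leaves out differences between mice. Intervals of summed UMIs also treat the UMIs of 1 barcode as independent, so they leave out differences between barcodes and can be too narrow. The 2 libraries shared 5 barcodes, of which 0 were among the cells described.

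CD8 T cells leave the thymus as naive cells that circulate through lymphoid organs. They carry the homing receptor Ccr7, the egress receptor S1pr1 and the transcription factors Tcf7, Lef1 and Klf2. On meeting antigen they become effector cells that make granzymes, perforin and the chemokine Ccl5, while memory cells keep the interleukin-7 receptor (Il7r), which sustains their survival. PD-1 is induced by T cell receptor signalling and stays high in chronically stimulated cells of tumours, so that cells without it can be naive, memory or recently recruited effector cells. Absence of Pdcd1 UMIs does not mean absence of PD-1 protein, since a shallow library misses transcripts.

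Summed over the cells described, Il7r, a gene of survival, was higher in NAV and Gzmb, a gene of killing, was lower. Gzmb was not lower in every class of barcodes given below. The sequences of both promoters are shown for this contrast of the sums. Each runs from 250 bases before to 50 bases after the start of the RefSeq gene on GRCm38.p6, 5′ to 3′ on the gene's strand, the minus strand for both. Capitals mark the ETS core GGAAGT, read on its other strand as ACTTCC, and the RUNX core TGTGGT, 2 short motifs that did not overlap here. ETS and RUNX proteins are transcription factor families of lymphocytes.
Il7r, chr15:9529827-9530126: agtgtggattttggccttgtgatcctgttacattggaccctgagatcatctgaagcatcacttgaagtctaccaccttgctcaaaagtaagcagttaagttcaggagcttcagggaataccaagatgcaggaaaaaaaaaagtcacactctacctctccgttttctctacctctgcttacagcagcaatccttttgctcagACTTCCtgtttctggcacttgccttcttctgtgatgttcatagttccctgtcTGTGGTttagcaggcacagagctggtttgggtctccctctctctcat
Gzmb, chr14:56262285-56262584: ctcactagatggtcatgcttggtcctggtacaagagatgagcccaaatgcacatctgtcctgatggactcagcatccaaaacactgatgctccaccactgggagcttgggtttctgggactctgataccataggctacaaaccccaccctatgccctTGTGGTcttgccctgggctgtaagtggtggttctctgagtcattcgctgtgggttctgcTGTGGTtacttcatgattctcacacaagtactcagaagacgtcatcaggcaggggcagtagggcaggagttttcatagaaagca
The Il7r window held 1 ETS match, at base 202, and 1 RUNX match, at base 254. The Gzmb window held 2 RUNX matches, at bases 158 and 217, and no ETS match. Searched on both strands, the ETS core was in 23.8% and the RUNX core in 16.8% of 32851 mouse promoter windows of 300 bases. The FOXO core TGTTTAC, in 3.65% of the windows, was in neither. These are matches of letters and no measure of binding.

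All 11 CD8 T cell markers were detected in over 5% of barcodes of both libraries, but 6 of them, Cd8a, Cd8b1, Cd3d, Cd3e, Cd3g and Trac, belong to the rule that chose the cells. Cd8a was seen in 78.6% and 78.2% of barcodes and Cd8b1 in 75.7% and 76.5%, in contrast to 0.279% and 0.142% for Cd8a in gated B cells. Of the 5 markers that the rule did not use, the T cell receptor constant gene Trbc2 was seen in 70.0% of MOCK and 83.2% of NAV barcodes and Trbc1 in 38.6% and 45.4%, against at most 0.568% of gated B cells for either. Tcf7 was seen in 51.4% of MOCK and 62.2% of NAV barcodes, Ccr7 in 38.6% and 52.1%, and Il7r in 30.0% and 53.8%. Median depth was alike, at 2587 UMIs in MOCK and 2519 in NAV, although over all kept barcodes the medians were 3882 and 2178. The members' summed UMIs were 212663 and 327769, and their median mitochondrial shares 4.69% and 5.39%.

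Some markers of other cells were at 0 and others were not. Among 5 CD4 T cell markers, Cd40lg and Foxp3 were at 0, and Cd4 was at 0 by the rule. Ikzf2, of the same list, was in 5 MOCK and 10 NAV barcodes, and Tnfrsf4 in 1 and 0. The B cell gene Ms4a1, the Kupffer gene Clec4f and the dendritic cell gene Xcr1 were also at 0. So were 7 of 9 hepatocyte and tumour epithelium markers, with Alb among them, while Epcam was in 4 and 0 barcodes and Spp1 in 2 and 6. Among 10 markers of gamma-delta and IL-17-type T cells 2 were at 0, while Trgc2 was in 9 and 10 barcodes and Trgc1 in 5 and 4. Ighm, an immunoglobulin gene, was in 14 MOCK and 22 NAV barcodes. The class II antigen presentation genes H2-Ab1 and Cd74, which B cells express, were in 12.9% and 12.9% of MOCK and 15.1% and 11.8% of NAV barcodes.

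Of 9 natural killer markers, Ncr1, Klra8 and Klra4 were at 0 in both libraries and 5 were in over 5% of barcodes. The adaptor genes Fcer1g and Tyrobp were in 24.3% and 18.6% of MOCK and 19.3% and 12.6% of NAV barcodes, while in gated B cells Fcer1g was in 8.38% and 6.53%, and Tyrobp in at least 10.5% of barcodes of each library. Gzma, which cytotoxic T cells also express, was in 7 MOCK and 12 NAV barcodes, Eomes in 7 and 13, and Klrb1c in 6 and 6.

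The natural killer markers summed to 616 CPM in MOCK and 549 CPM in NAV (UMIs per 1000000 UMIs of the summed cells), and their part in the results was not tested. The 11 macrophage and Kupffer markers summed to 597 CPM in MOCK and 244 CPM in NAV, with a median of 1 and 0 UMIs per barcode and a highest of 34 and 16. Lyz2 and Apoe were in 24.3% and 24.3% of MOCK and in 15.1% and 10.9% of NAV barcodes, and in 15.2% and 21.4% of MOCK and 11.9% and 16.3% of NAV gated B cells, which lack both genes and had medians of 1300.5 and 1453.5 UMIs. C1qc was in 21.4% and 5.04%, and in 9.50% and 4.26% of B cells. At least 10 UMIs of other lineages were held by 4 of 70 MOCK and 8 of 119 NAV barcodes. Among them were 5 barcodes, 2 MOCK and 3 NAV, led by Siglech, Spib and Ly6d, genes of plasmacytoid dendritic cells. A finer clustering, given below, had Siglech and Spib among the leading genes of 14 barcodes.

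The thresholds of the rule left barcodes close to its edges. A single Pdcd1 UMI kept out 8 MOCK and 22 NAV barcodes. Tcf7 was in 37.5% and 13.6% of those barcodes, against 51.4% and 62.2% just inside the threshold, and Ccl5 in 75.0% and 81.8%, against 52.9% and 49.6%. Of the cells described, 11 MOCK and 27 NAV barcodes held only 1 CD8 UMI, and Tcf7 was in 36.4% and 66.7% of these. A single UMI of the 4 excluded genes was held by 8 and 5. Barcodes with 2 or more such UMIs that otherwise met the rule numbered 35 and 16, and their medians were 8526 and 5952 UMIs.

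The cells were a larger share of the NAV library than of the MOCK library. They made up 0.650% (0.507 to 0.820) of kept MOCK barcodes and 1.14% (0.945 to 1.36) of kept NAV barcodes, a log2 NAV/MOCK ratio of 0.81 (0.37 to 1.26). The whole T cell compartment moved in the same direction. T cell barcodes, those with a CD3 or Trac UMI and at most 1 UMI of the excluded genes, were 4.20% and 6.64%, a log2 ratio of 0.66. As a share of T cell barcodes, the CD8 T cells without PD-1 transcripts were 15.5% in MOCK and 17.2% in NAV, a log2 ratio of 0.15 (-0.29 to 0.60) that held 0. The log2 ratio for CD8 T cells with PD-1 transcripts was 1.23 (0.76 to 1.71), and its interval overlapped that of the cells without them. The share of the cells described left out 35 MOCK and 16 NAV barcodes that otherwise met the rule. These held 2 or more UMIs of the excluded genes, and the ratio with them included was not computed.

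Within the CD8 gate, 56.0% (46.8 to 64.9) of MOCK and 48.8% (42.3 to 55.2) of NAV barcodes had no Pdcd1 UMI. Thinned to 1000 UMIs each, which sets depth equal and leaves out shallower barcodes, these shares were 65.5% and 56.8%, and thinned to 1500 UMIs they were 58.1% and 53.8%. The intervals of the libraries overlapped at each depth.

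Set beside CD8 T cells with PD-1 transcripts, the cells described carried far more transcripts of naive and homing genes. The rule had separated the groups by Pdcd1, so these values are a description without a test. Ratios are log2 ratios of CPM. Of 1438 genes with at least 50 UMIs over both cell groups in each library, 95 were at least 1.5-fold higher in the cells without PD-1 transcripts in both libraries (6.61%) and 145 were lower (10.1%). Under median-of-ratios scaling, which raised each MOCK ratio by 0.12, the counts were 136 and 117.

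Of the 10 naive and homing genes with enough UMIs, 9 were higher in both libraries, with medians of 2.88 in MOCK and 2.86 in NAV, against -0.03 and -0.10 over all genes tested. Lef1, a transcription factor of naive T cells, stood at 3.47 and 3.85. For Tcf7, its close relative, the ratios were 3.35 and 2.45. Klf2, which drives S1pr1, was at 2.67 and 3.57, and S1pr1 itself at 3.27 and 2.83. Satb1, a chromatin organiser, was at 2.42 and 2.45 and Klf3 at 2.28 and 2.89. Foxp1, a factor that maintains quiescence, was the 1 gene of the list below 1.5-fold in a library, with 0.52 in MOCK and 1.27 in NAV. Ccr7 differed between libraries, at 0.78 (0.18 to 1.41) in MOCK and 4.49 (3.41 to 5.83) in NAV. The MOCK value rested on 34 Ccr7 UMIs in 5.45% of PD-1 barcodes, and was 4.68 without barcodes holding 10 or more UMIs of other lineages.

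Outside that list, Il7r was at 0.54 (-0.33 to 1.45) in MOCK and 1.46 (1.01 to 1.92) in NAV. Ly6c2, a surface antigen of memory CD8 T cells and of monocytes, was at 3.18 and 2.93. It was seen in 38.6% and 38.7% of barcodes, with up to 33 and 43 UMIs in 1 barcode. The phosphatase gene Ssh2 (1.96 and 1.81), Gramd3 (2.27 and 1.55) and Rras2, a small GTPase (2.11 and 2.91), were among the 10 genes with the firmest excess in the cells without PD-1 transcripts.

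Most cytotoxic genes were lower. Of 10 cytotoxic genes with enough UMIs, 6 were lower in both libraries and 0 higher, with medians of -0.75 and -1.33. Gzma, a granzyme, was at -3.97 and -4.31, Ccl5 at -1.85 and -1.66, Nkg7, a granule protein, at -1.27 and -1.37, and Gzmb at -0.63 and -1.30. Ccl4, a chemokine, was at 0.62 in MOCK and -1.91 in NAV. Klrh1, a lectin-like receptor, had 60 UMIs in MOCK cells with PD-1 transcripts and 0 in those without, a log2 ratio of at most -4.66 at a floor of 3 counts over the group. In NAV it had 203 and 4 UMIs, a ratio of -5.54. Of 4 tissue residency genes with enough UMIs 3 were lower and 1 higher, and of 4 checkpoint and exhaustion genes 2 were lower and 0 higher. Cxcr6, a chemokine receptor of tissue T cells, was at -2.76 and -2.14. The gene that was higher was Cd69, an early activation marker and retention factor, at 1.25 (0.48 to 2.08) in MOCK and 0.84 (0.09 to 1.62) in NAV. Among costimulation genes, Tnfrsf9, the costimulatory receptor 4-1BB, was at -3.19 and -2.92.

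Checkpoint and exhaustion genes without Pdcd1 itself were also low. Tox, a factor of chronically stimulated T cells, was at -2.16 and -2.70, seen in 11 of 70 and 19 of 119 barcodes, against 58.2% and 60.0% of those with PD-1 transcripts. Ctla4 was at -3.11 and -3.07. Havcr2 had 3 MOCK and 4 NAV UMIs, Tigit 2 and 2, and Lag3 1 and 3 in the cells without PD-1 transcripts. Of the 15 genes of that list, 4 had enough UMIs, and 2 of these, Tox and Nr4a2, a target of T cell receptor signalling, were lower in both libraries. Of 9 T cell receptor signalling genes with enough UMIs 0 were past 1.5-fold in both libraries in either direction, with medians of -0.004 and -0.10. Icos, a costimulatory receptor, at -1.09 and -1.31, had 34 of its 95 MOCK and 26 of its 153 NAV UMIs in 1 barcode each.

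**Figure D1:**
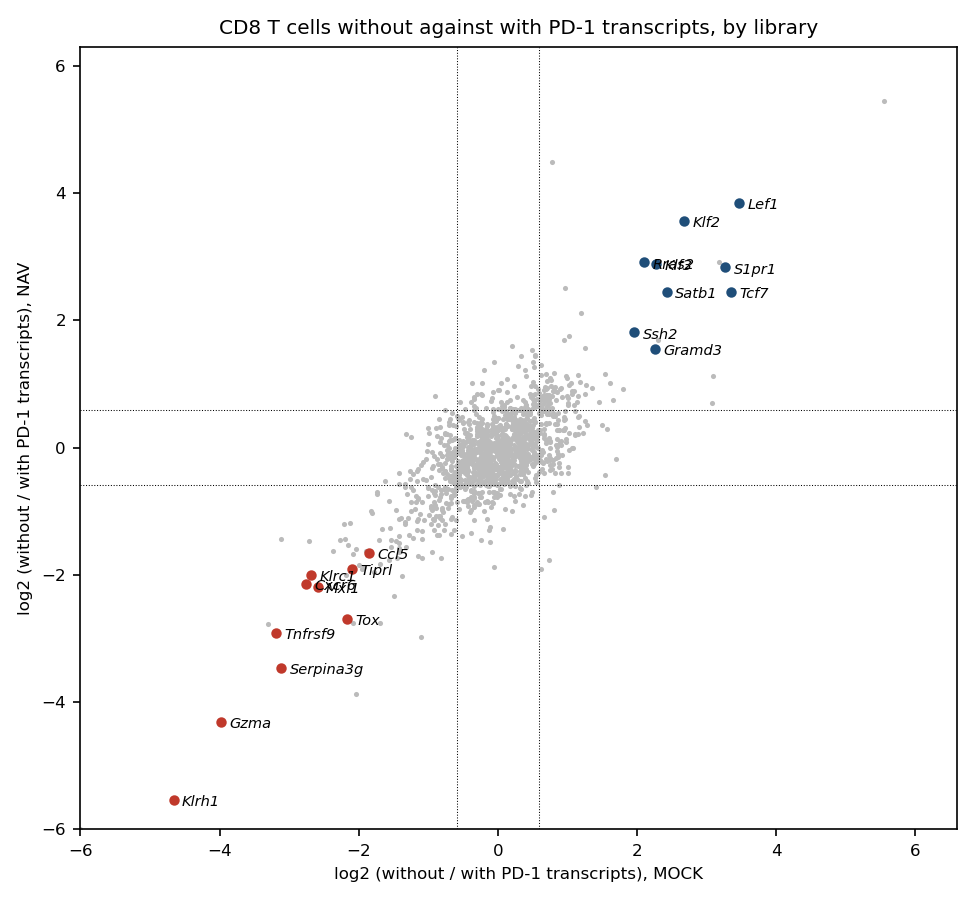
Each point is 1 of 1438 genes, with the log2 ratio of CD8 T cells without to with PD-1 transcripts in MOCK on the x axis and in NAV on the y axis, and dotted lines mark 1.5-fold. Lef1, Klf2, S1pr1 and Tcf7 stand at the upper right and Klrh1, Gzma and Tnfrsf9 at the lower left in both libraries.

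Single barcodes were classed by whether they held UMIs of naive and homing genes, with Ccr7, Lef1 and S1pr1 among them, and of effector genes (Ccl5, Nkg7, Gzmb, Gzmk, Gzma, Prf1, Cxcr6). In MOCK, 16 of 70 barcodes (22.9%) held only naive and homing UMIs, 30 (42.9%) held both, 23 (32.9%) only effector UMIs and 1 neither. In NAV, the counts were 31 of 119 (26.1%), 61 (51.3%), 27 (22.7%) and 0, and 0 of 119 allows a share of up to 3.05% by the exact interval. Each class had overlapping intervals in the libraries. Classes are ranges of a count and not cell types, and barcodes with both were the deepest, with medians of 3751.5 and 2933 UMIs. Thinned to 1000 UMIs, naive and homing only were 29.0% and 34.8%, both 27.4% and 32.1%, effector only 38.7% and 26.8% and neither 4.84% and 6.25%. Among CD8 T cells with PD-1 transcripts, 85.5% of MOCK and 86.4% of NAV barcodes held only effector UMIs.

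**Figure D2:**
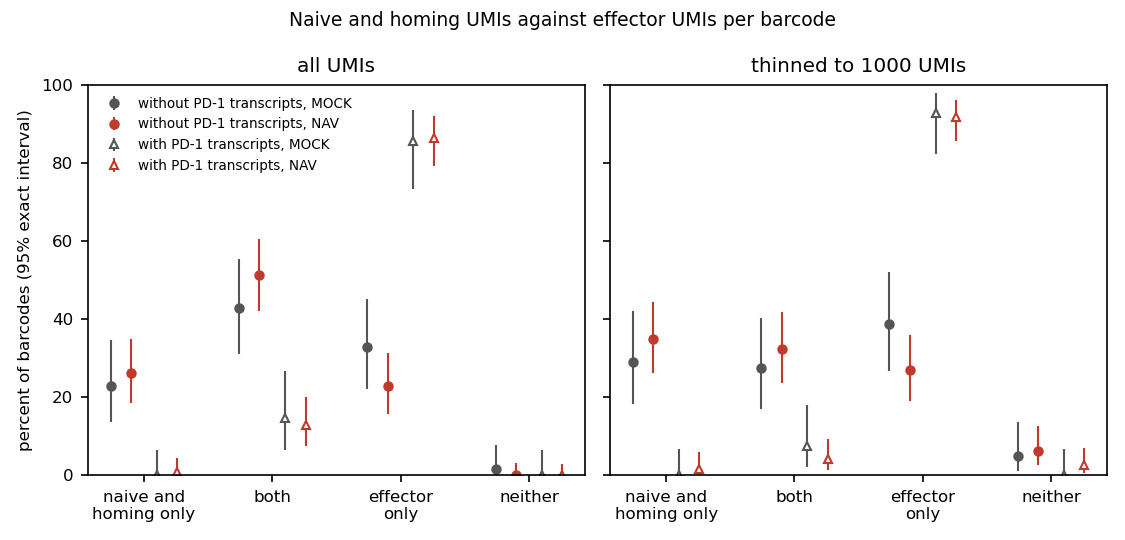
Percent of barcodes, on the y axis, in 4 classes by their naive, homing and effector UMIs, with exact 95% intervals, for CD8 T cells without PD-1 transcripts (filled circles) and with them (open triangles), at full depth and thinned to 1000 UMIs. The cells without PD-1 transcripts were spread over 3 classes, whereas over 85% of those with them held only effector UMIs.

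Pairs of genes were also read within single barcodes. Ccl5 was in 37.0% of MOCK and 30.6% of NAV barcodes with a Ccr7 UMI, and in 62.8% and 70.2% of those without. Nkg7 was in 75.7% and 74.6% of barcodes with Ccl5, and in 42.4% and 35.0% of those without. Gzmb was in 33.3% of MOCK barcodes with Ccr7 and in 37.2% of those without, while in NAV the shares were 8.06% and 38.6%. These shares are descriptions over barcodes of 1 library each, and depth differs among the barcodes.

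Clustering the 189 barcodes gave 4 clusters at a resolution chosen after the data were seen. One of 90 barcodes was led by Slc28a2b, Elovl6 and Igfbp4 with S1pr1 and Lef1, one of 55 by Ikzf2, Tnfrsf9, Fgl2 and Cxcr6, one of 39 by Pclaf, Ccna2, Rrm2 and Mki67, genes of DNA replication and division, and one of 5 by Siglech. They were left unnamed. Trgc2, a gamma chain constant gene, was in 29.1% of the second cluster and 2.24% of the other barcodes. At a finer resolution of 1, a cluster of 14 barcodes, 6 MOCK and 8 NAV, was led by Siglech, Tcf4 and Mpeg1. Siglech was in 35.7% of it and Mpeg1 in 78.6%, against 0% and 3.43% of the other barcodes.

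Within the cells without PD-1 transcripts, the NAV library carried more Il7r and the MOCK library more Ccl4, Fosb and glycolytic transcripts. Of 2039 genes with at least 50 UMIs over both libraries, 160 were at least 1.5-fold higher in NAV (7.85%) and 180 lower (8.83%), and the median log2 ratio was 0.01. Median-of-ratios scaling gave 200 and 147. The sums without barcodes holding 10 or more UMIs of other lineages gave 145 higher and 156 lower, and those without cycling barcodes 123 and 148.

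Il7r (ENSMUSG00000003882, protein-coding) spans GRCm38 chromosome 15 from 9505788 to 9530176 in the GENCODE annotation. The window printed above was set by the RefSeq start and lies wholly within that span. Il7r had 33 UMIs in 21 of 70 MOCK barcodes and 146 UMIs in 64 of 119 NAV barcodes. Its level was 155 and 445 CPM, a log2 NAV/MOCK ratio of 1.52 (0.97 to 2.11), and no barcode held more than 7 of the UMIs. After thinning, Il7r was seen in 14.5% (6.86 to 25.8) of MOCK and 33.9% (25.3 to 43.5) of NAV barcodes, and in 1.49% and 1.10% of gated B cells. The ratio was 0.60 (-0.18 to 1.45) in CD8 T cells with PD-1 transcripts and -0.79 in gated CD4 T cells. In gated B cells, neutrophils and macrophages its median was 0.52, and the ratio minus that median was 1.0. By class, the Il7r ratio was 1.10 (0.16 to 2.15) in barcodes with naive and homing UMIs only and 1.99 (1.18 to 2.92) in those with both kinds. In barcodes with effector UMIs only it was 0.16 (-1.44 to 1.82), from 7 and 9 UMIs.

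Naive and homing genes were split between the libraries. Of 12 with enough UMIs, 1 was at least 1.5-fold higher in NAV and 2 lower, against 7.85% and 8.83% of all genes tested. Their median was 0.37, against 0.01 over all genes tested. Klf2 had 121 MOCK and 250 NAV UMIs, a ratio of 0.42 (0.10 to 0.75). Intervals held 0 for Ccr7 (0.34), Lef1 (0.46), S1pr1 (0.40) and Tcf7 (0.16). Foxp1 was at 0.61 (0.16 to 1.07), and at 0.40 minus the ratio of other cells. Igfbp4, a binding protein of insulin-like growth factors, was lower at -1.35 (-2.0 to -0.72), and it was also lower in gated CD4 T cells (-1.71). Bach2, a repressor that restrains effector differentiation, was lower at -0.74 (-1.32 to -0.15), while in CD8 T cells with PD-1 transcripts it was at 1.23 (-0.18 to 2.97). Thinned shares of barcodes were 27.4% and 42.9% for Tcf7, 14.5% and 33.0% for Ccr7 and 29.0% and 44.6% for Klf2. For each of these genes the intervals of the libraries overlapped.

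Among memory and survival genes, 2 of 7 were higher in NAV and 1 lower. Besides Il7r, Myb, a transcription factor of stem-like T cells, was higher, from 13 UMIs in MOCK and 41 in NAV (1.03, 0.10 to 2.06). Cd44, an adhesion receptor of activated cells, was lower, at 357 and 214 CPM (-0.74, -1.23 to -0.26). Bcl2 (0.32), Il2rb (-0.02) and Ly6c2 (-0.07) were below 1.5-fold.

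Of 10 cytotoxic genes with enough UMIs, 3 were lower in NAV and 0 higher, with a median of -0.30. Ccl4 had 70 UMIs in 18 MOCK barcodes and 29 in 12 NAV barcodes (-1.90, -2.57 to -1.25), whereas in CD8 T cells with PD-1 transcripts it was at 0.64 (0.09 to 1.22), an interval that did not overlap. Gzmb (ENSMUSG00000015437) had 162 UMIs in 25 of 70 MOCK barcodes and 160 in 27 of 119 NAV barcodes, a ratio of -0.64 (-0.97 to -0.32). In CD8 T cells with PD-1 transcripts Gzmb was at 0.03 (-0.22 to 0.28). Up to 29 and 36 of the Gzmb UMIs came from 1 barcode, and after thinning Gzmb was seen in 24.2% (14.2 to 36.7) of MOCK and 16.1% (9.81 to 24.2) of NAV barcodes. Gzmb was at -2.20 (-2.87 to -1.58) in barcodes with both kinds of UMIs and at 0.49 (0.08 to 0.91) in those with effector UMIs only, classes that Gzmb itself helped to define. Xcl1, a chemokine that attracts dendritic cells and defined no class, was at 1.38 (0.48 to 2.37) in the effector class, at -0.42 (-1.10 to 0.26) in barcodes with both kinds of UMIs, and at 0.17 (-0.35 to 0.71) over all barcodes. Ccl5, at 2022 and 2374 CPM, differed little (0.23, 0.06 to 0.40). Nkg7 (0.07), Prf1 (0.51) and Gzmk (0.48) had intervals that held 0.

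Of 4 short-lived effector genes with enough UMIs, 1 was lower in NAV and 0 higher, with a median of 0.16. The lower gene was Zeb2. Zeb2, a factor of terminal effector cells, had 44 MOCK and 17 NAV UMIs (-2.0, -2.90 to -1.16), of which 19 of the MOCK UMIs were in 1 barcode, and it was -1.08 when Cd8b1 was required. Tbx21, which encodes T-bet, had 25 and 12 UMIs (-1.68, -2.81 to -0.64), below the minimum of 50. Of 4 tissue residency genes, 1 was lower and 2 higher. Cd69 had 57 UMIs in 20 MOCK and 41 in 28 NAV barcodes (-1.10, -1.72 to -0.50). By class, Cd69 was at -2.47 (-4.08 to -1.09) in barcodes with naive and homing UMIs only. It was at -2.41 (-4.16 to -0.98) in those with effector UMIs only and at 0.38 (-0.58 to 1.41) in those with both kinds. Rgs1, a regulator of chemokine receptor signalling, was higher in NAV over all barcodes (0.72, 0.17 to 1.29). Cxcr6 was at 0.60 with an interval that held 0 (-0.01 to 1.25). Of 15 checkpoint and exhaustion genes, 3 had enough UMIs. Tox was at 0.00 (-0.81 to 0.85), Nr4a2 at -0.09 (-0.51 to 0.34) and Nfatc1 at 0.40 (-0.25 to 1.08).

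**Figure D3:**
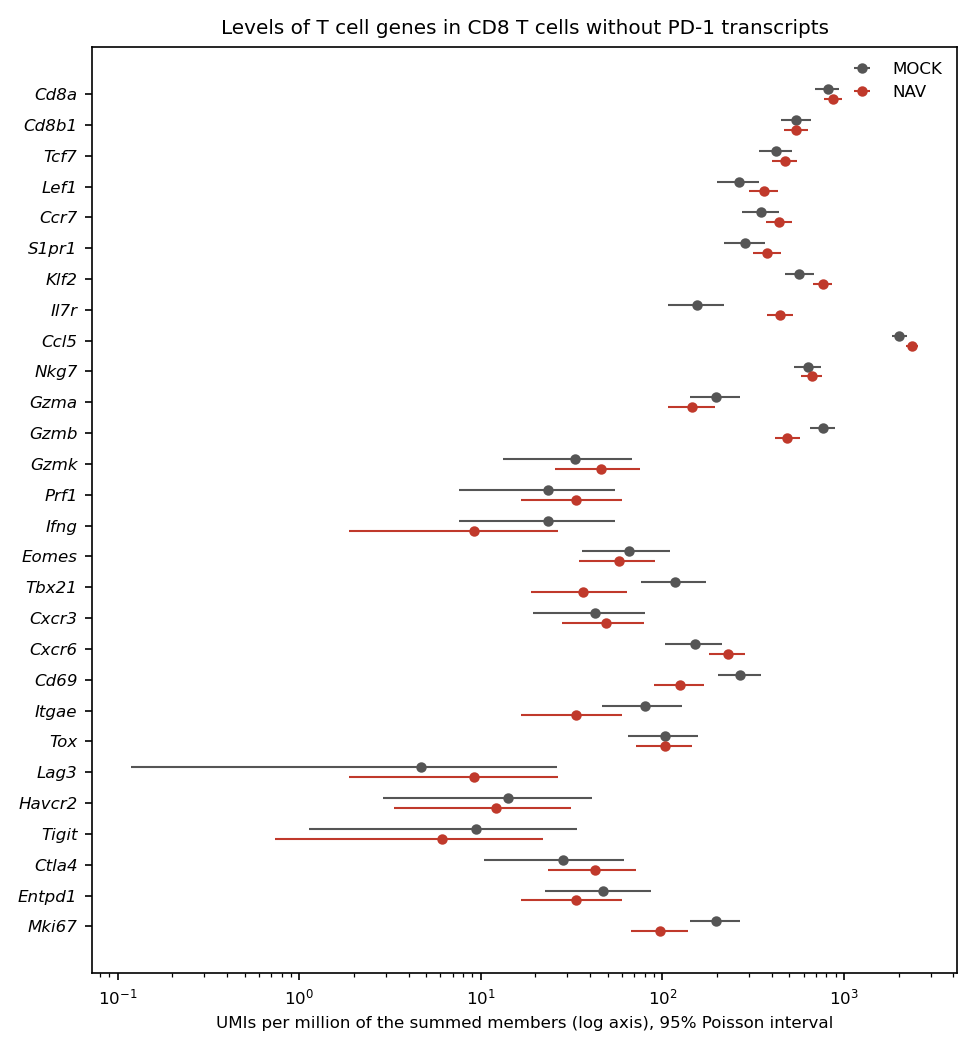
CPM of the summed CD8 T cells without PD-1 transcripts, on a log x axis, for T cell genes in MOCK (grey) and NAV (red), with 95% Poisson intervals. Il7r lies higher in NAV, with intervals apart, Gzmb, Cd69 and Tbx21 lie higher in MOCK, and the intervals of Lag3, Havcr2 and Tigit are wide, as they rest on 4 UMIs or fewer.

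Immediate early genes, which respond within minutes to signals or to tissue handling, were split, with 2 of 13 higher in NAV and 4 lower. Junb was higher (0.75, 0.44 to 1.07), as was Dusp2, a phosphatase of MAP kinases (0.79, 0.53 to 1.05). Fosb was lower (-2.43, -3.07 to -1.83), as was Fos (-1.04, -1.40 to -0.67). In CD8 T cells with PD-1 transcripts the same genes stood at 0.24, 0.21, -2.25 and -0.88. Egr1, at -0.85, was -0.05 without cycling barcodes, and 23 of its 48 MOCK UMIs were in 1 barcode.

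Glycolytic genes were lower in NAV, 6 of 9 past 1.5-fold and 0 higher, with a median of -1.07. Gapdh had 235 and 172 UMIs (-1.07, -1.37 to -0.78), Eno1 89 and 42 (-1.71), Pkm 80 and 54 (-1.19) and Tpi1 50 and 28 (-1.46). Several were also lower in other cells of the NAV library. The median ratio in gated B cells, neutrophils and macrophages was -0.65 for Gapdh and -1.31 for Eno1 but 0.15 for Tpi1, and the list's median minus these ratios was -0.61. Minus these ratios Gapdh was at -0.43 and Eno1 at -0.40, both below 1.5-fold.

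Cell cycle genes were lower, 5 of 9 past 1.5-fold, with a median of -0.68. Mki67 had 42 UMIs in 10 MOCK barcodes and 32 in 10 NAV barcodes (-1.02, -1.73 to -0.32). Cycling barcodes, with at least 3 UMIs over 6 division genes, were 9 of 70 in MOCK (12.9%, 6.05 to 23.0) and 9 of 119 in NAV (7.56%, 3.52 to 13.9). The cluster led by Pclaf, Ccna2, Rrm2 and Mki67 held 23 of 70 MOCK and 16 of 119 NAV barcodes, and Mki67 was in 35.9% of it. Top2a, a topoisomerase of dividing cells, was at -1.37 over all barcodes and at 0.17 without the cycling ones. Top2a is 1 of the 6 genes that define cycling barcodes, so this change is partly built into the filter.

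Of 6 interferon response genes with enough UMIs, 4 were lower in NAV and 0 higher, with a median of -0.62. Ifit1, an antiviral effector, had 34 UMIs in 7 MOCK and 19 in 3 NAV barcodes (-1.46, -2.36 to -0.61), and stood at 1.91 (-0.18 to 5.08) in CD8 T cells with PD-1 transcripts. Ifi47, an interferon-inducible GTPase, was at -0.65 (-1.18 to -0.11) and Gbp7 at -0.79 (-1.42 to -0.15). Ifnar1, a chain of the type I interferon receptor, was higher, from 15 and 47 UMIs (1.02, 0.16 to 1.97). Among adhesion genes, Itgb2, an integrin chain (0.73, 0.25 to 1.22), and Selplg, a selectin ligand (0.67, 0.34 to 1.01), were higher.

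A list of COPI coat and ARF genes had a median of 0.02. NAV2729 blocks ARF GTPase activation, which these transcript levels do not measure. Of 11 genes of the list with enough UMIs 1, Copb1, was past 1.5-fold (0.62, -0.18 to 1.48), with an interval that held 0. The remaining lists held few genes past 1.5-fold. Of 10 genes of MHC class I presentation, 2 were lower and 0 higher, Psmb8, of the immunoproteasome (-0.94, -1.43 to -0.45), and Psme2, of its activator (-0.84, -1.46 to -0.22). Of 5 costimulation genes 1 was higher and 2 lower, each with an interval that held 0, as for Tnfrsf9 (0.71) and Cd5 (-0.62). Of 10 T cell receptor signalling genes 1 was lower, and of 3 natural killer type receptor genes and 3 checkpoint genes 0 were past 1.5-fold. Of 10 heat shock genes 2 were lower, Hspa8 (-1.14, -1.35 to -0.94) and Hspa1b (-1.10). Of the 64 MOCK UMIs of Hspa1b, 28 were in 1 barcode. Minus the median ratio of gated B cells, neutrophils and macrophages, Hspa8 was at -0.46 and Psmb8 at -0.40, both below 1.5-fold, and the median of the heat shock list was -0.47.

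Ranked by how far their intervals lay from 0, the other leading NAV genes included Ino80d, of a chromatin remodeller (1.79), Dynll1, a dynein light chain (1.21), Ppp1r18 (1.17), Rmnd5a (1.13), Ss18 (1.01) and Btg1, an antiproliferative gene (0.64). Those highest in MOCK included Cct7, a chaperonin subunit (-2.77), Crip1 (-2.12), Ppp1ca, a phosphatase subunit (-2.03), Fau, a ribosomal fusion protein (-1.81), and Anxa6, an annexin (-1.72). The MOCK genes were low across the NAV library: the median ratio in B cells, neutrophils and macrophages was -2.23 for Ppp1ca, -2.05 for Fau, -1.62 for Crip1, -1.57 for Cct7 and -1.06 for Anxa6. Minus those medians Ppp1ca was at 0.20, Fau at 0.24 and Crip1 at -0.50, and Itgb2 was at 0.30. Cct7, at -1.19, and Anxa6, at -0.66, stayed past 1.5-fold. In the B cells, neutrophils and macrophages Fosb was at -0.50, Zeb2 at -0.06 and Ccl4 at 0.11.

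The macrophage markers, at 597 and 244 CPM, moved with these ratios, and their part in them was not tested. Without barcodes holding 10 or more UMIs of other lineages, no named NAV/MOCK ratio past 1.5-fold changed sign, among those with an interval that left out 0. The other named ratios were not followed. That filter took out 4 MOCK and 8 NAV barcodes and kept those with fewer such UMIs.

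**Figure D4:**
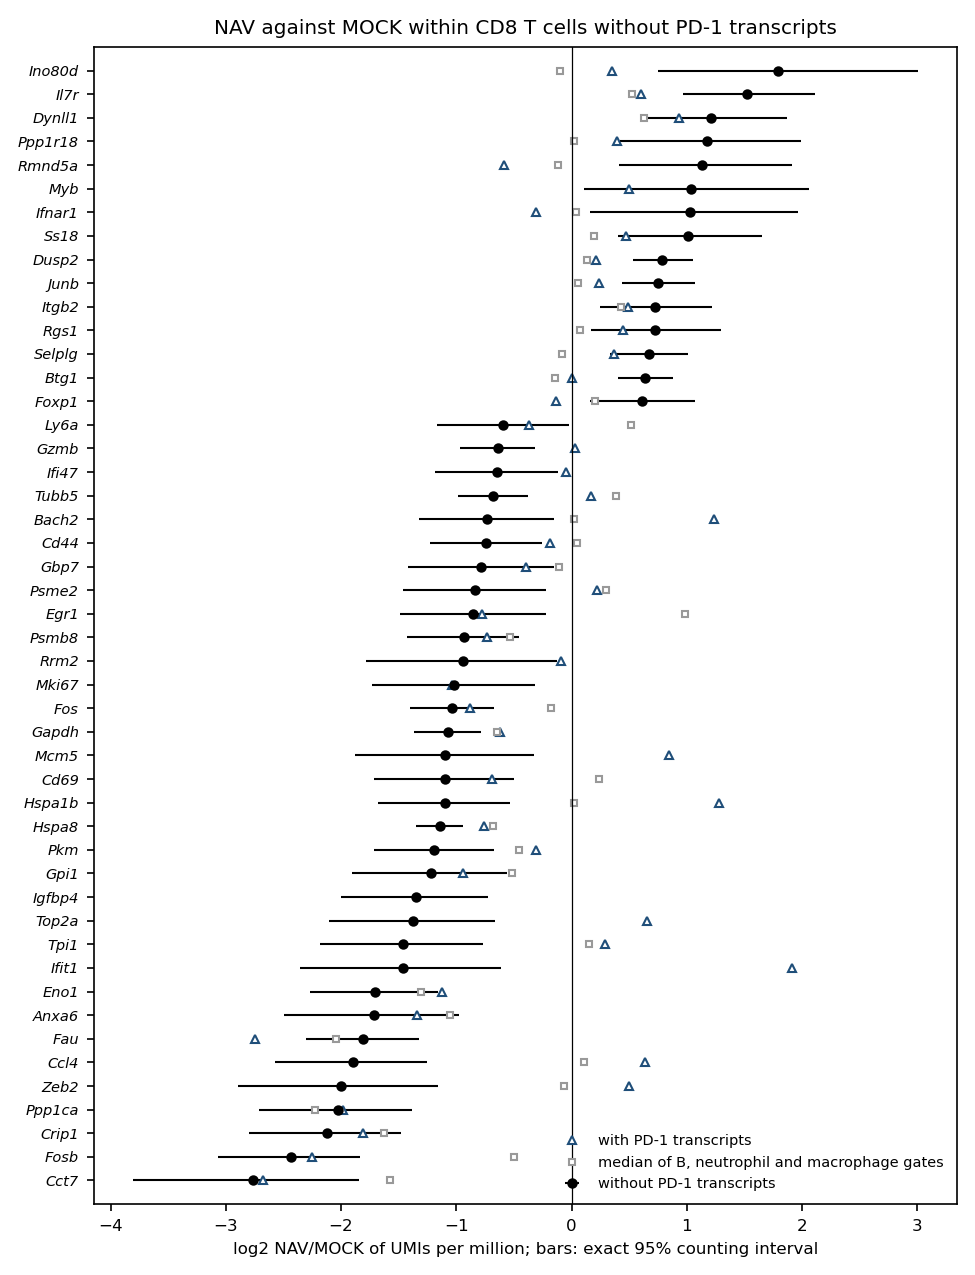
Log2 NAV/MOCK ratio on the x axis, with exact 95% counting intervals, for named genes in CD8 T cells without PD-1 transcripts (black), beside the ratio in those with them (blue triangles) and the median of gated B cells, neutrophils and macrophages (grey squares). Il7r is higher in NAV in all 3, Ccl4 and Zeb2 lie below 0 in the cells without PD-1 transcripts and near or above 0 in the other groups, and Ppp1ca and Fau are low throughout.

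Thinned shares of barcodes with a UMI were set beside those of CD4 T and B cells. Ccl5 was in 40.3% and 37.5% of them, in 25.5% and 46.8% of gated CD4 T cells, and in 1.32% and 0.628% of B cells, whose medians were 1300.5 and 1453.5 UMIs before thinning. For Tcf7 the shares in CD4 T cells were 42.6% and 23.4%, and in B cells 0% of 604 and 0% of 637 barcodes, which allow up to 0.609% and 0.577%. B cells express Ccr7, S1pr1 and Klf2 themselves and give no background for these genes. From MOCK to NAV the Tcf7 share was thus higher in the CD8 T cells without PD-1 transcripts and lower in CD4 T cells, with overlapping intervals between the libraries in both.

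**Figure D5:**
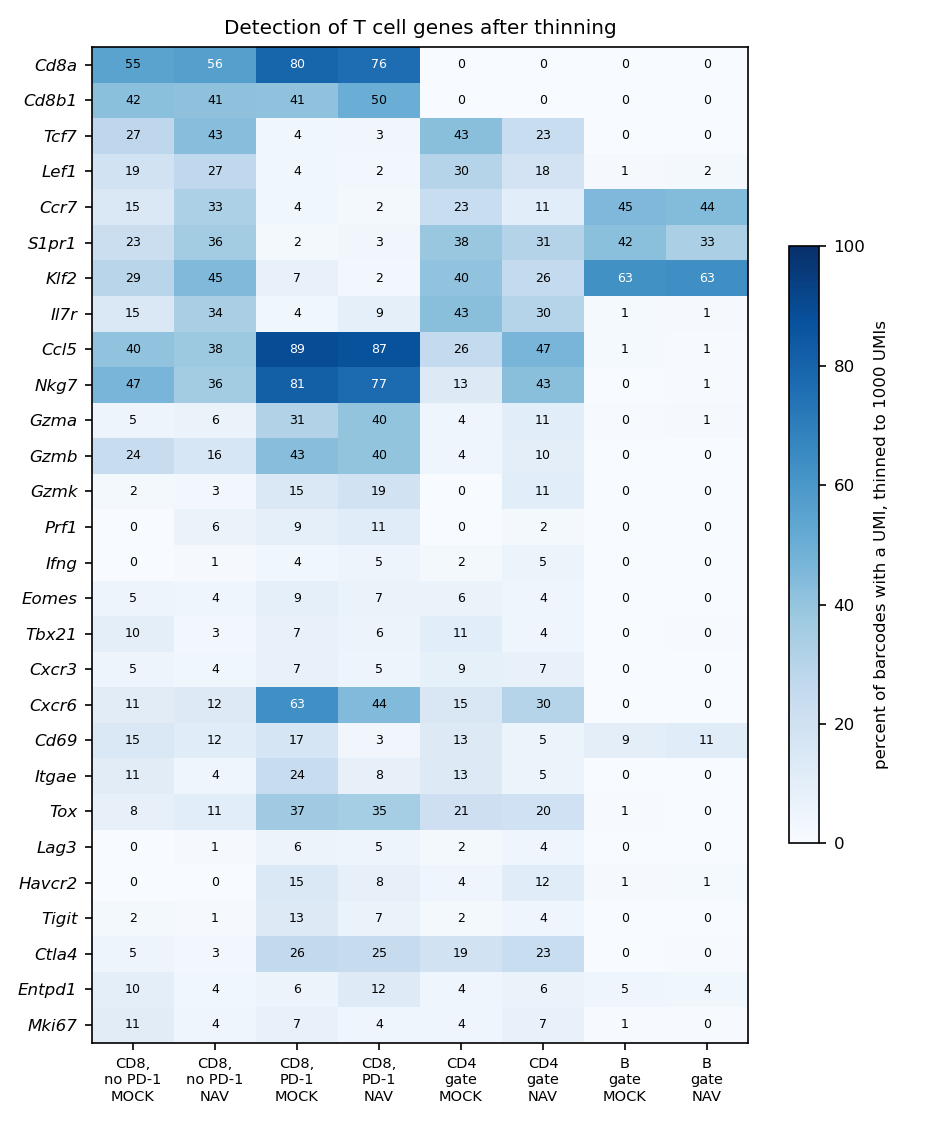
Percent of barcodes with a UMI of each gene (rows) after thinning to 1000 UMIs, in CD8 T cells without and with PD-1 transcripts, gated CD4 T cells and gated B cells of each library (columns), with darker blue for higher shares. Tcf7, Lef1 and Klf2 are seen in the CD8 T cells without PD-1 transcripts and in few of those with them, and Cxcr6, Gzma and Tox the other way round.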

How the data were processed

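CD45+ cells of 1 MOCK and 1 NAV pool were measured by single-cell RNA sequencing. The authors deposited whole-number UMI counts of 31253 genes per barcode. The mm10 build and the tools STARsolo 2.7.10a, fastp and Cell Ranger appear in the submitters' processing notes, in no stated role or order. The library totals were 45976676 and 31454031 UMIs, and no barcode held under 500. Scrublet's automatic threshold called 1 and 0 barcodes and had not worked; a score above 0.25 marked 1 and 4 of the cells described, which were kept. The cells, gene lists and thresholds were chosen with earlier results of these data known.

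UMIs were summed over the cells per library and divided by the total. Log2 ratios have exact intervals conditional on both counts, and shares have Clopper-Pearson intervals, at the 95% level. For summed UMIs the former do not include the spread between barcodes. Genes with at least 50 UMIs were compared, and 1.5-fold was used in place of a test. With 0 counts, a floor of 3 counts over the group gave a bound. For thinned shares 8 MOCK and 7 NAV barcodes below 1000 UMIs were left out, as were 1 and 3 with PD-1 transcripts. Gated B cells, neutrophils and macrophages served to show ratios shared by the library; genes with at least 50 UMIs in all 3 gates have such a value. Genes named were 29 T cell genes of a written list, the 10 firmest on each side of each comparison by the interval's bound nearest to 0, up to 5 members past 1.5-fold of each of 18 lists, leading cluster genes and markers of other cells, of which some are not reported here. Copb1 and the Il7r, Gzmb, Xcl1 and Cd69 values by class were chosen after their values were seen. Clustering used scanpy 1.11.5 with 1000 variable genes, 15 components, 15 neighbours and Leiden resolution 0.5, or 1 for the finer clustering. Coordinates are from GENCODE vM21 and promoters from RefSeq, both on GRCm38. These sources give different gene starts for Il7r and Gzmb, and neither printed window holds the GENCODE start. The ratio code was tested on simulated counts. Alternatives were a stricter filter, other coreceptor and exclusion thresholds, doublet scores, denominators, thinning, scaling, weights and low-count filters. Python 3.11.15, NumPy 2.4.6, SciPy 1.17.1 and pandas 2.3.3 were used.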

Additional observations from a re-analysis of the deposited data

How the results depend on the processing

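With 1 pooled library per group no replicate could be left out and no paired analysis was possible. Of 10 alternatives for the share of kept barcodes, 9 kept the log2 ratio within its interval, and as a share of T cell barcodes it was 0.15. None of the 10 allowed more UMIs of the excluded genes than the rule did. Thinned to 1000 UMIs before the rule was applied, the share of the CD8 gate without Pdcd1 was 55.8% in MOCK and 57.1% in NAV, against 56.0% and 48.8%, so the order of the libraries turned. Counts past 1.5-fold between libraries were 612 higher and 644 lower with at least 20 UMIs, and 1700 and 2694 with at least 1 UMI in each library, filters that test more genes. Between cells without and with PD-1 transcripts, thinning before the rule left 264 genes and counts of 12 higher and 15 lower.

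Over the genes named, 1930 values under an alternative stayed within the main interval and 112 moved in size. In 11 a called ratio changed sign. Without cycling barcodes the NAV/MOCK ratio was 0.17 for Top2a, which helped to define those barcodes, and 0.053 for Tubb5. Minus the ratios of other cells it was 0.20 for Ppp1ca and 0.24 for Fau. Thinned before the rule, the ratio of cells without to with PD-1 transcripts was 0.56 in MOCK and 0.19 in NAV for Icos, 0.012 in MOCK for Klrc1, 0.99 and 0.43 for Il2ra, 0.51 in NAV for Cd5 and 0.087 in NAV for Tpi1, from few UMIs; the cause was not tested. The last 3 alternatives, without other-lineage barcodes, without cycling barcodes and without the deepest barcode of each library, were chosen after the data were seen. The size of each pool and the spread between mice are not known from these files, and 70 and 119 barcodes limit all ratios.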
